A study of Mus musculus with 12 samples.

Results

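The genes described here are 37 genes of tRNA charging, which are 19 genes of cytosolic aminoacyl-tRNA synthetases, 16 genes of mitochondrial ones and 2 genes, Aimp1 and Aimp2, whose products hold several of the cytosolic enzymes together in the multisynthetase complex. They were chosen by symbol, with earlier results of these data known, among the 55414 Ensembl genes of the count table. Each of the 37 symbols matched 1 gene through GENCODE vM39. The livers of 12 C57Bl/6J mice, females of 8 to 12 weeks per the study's methods, were analysed by bulk RNAseq in 4 groups of 3. The first injection was NaCl or 300 mg/kg FeSO4, the second, 6 h later, was PBS or 10 mg/kg of the synthetic glucocorticoid dexamethasone (DEX), and livers were taken 2 h after the second and 8 h after the first. The groups were NaCl/PBS, NaCl/DEX, FeSO4/PBS and FeSO4/DEX, all shared the C57Bl/6J genotype label, and all 12 mice received 2 intraperitoneal injections. The study asked how acute iron overload changes the liver and its response to DEX.

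Aminoacyl-tRNA synthetases attach each amino acid to its tRNA and so supply every ribosome with its substrates. Mammalian cells make proteins in the cytosol and, from the mitochondrial genome, inside mitochondria, and most amino acids have a separate nuclear gene for each compartment, by convention numbered 1 for the cytosolic and 2 for the mitochondrial enzyme. The glycine and lysine enzymes, Gars1 and Kars1, serve both compartments from 1 gene each and are counted here as cytosolic. Several cytosolic synthetase genes are textbook targets of ATF4, the transcription factor of the amino acid response.

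All 37 genes passed edgeR's filter on low counts, and the lowest number of reads on any of them in a library was 25. Total counts per library lay between 16335651 and 23827340. In all, 13857 genes were tested in 1 edgeR quasi-likelihood model of the 4 groups, a gene was called at a Benjamini-Hochberg adjusted p (edgeR FDR) of 0.05 or less, and changes are log2 fold changes (LFC) ± SE. Normalized counts are counts scaled by edgeR's TMM factors. These were 1.02 to 1.16 in the NaCl groups and 0.871 to 0.952 in the FeSO4 groups, so that scaling by library size alone moved the median LFC of all tested genes after FeSO4 from -0.015 to -0.34. Each library was counted as 1 mouse, since the labels give each a replicate number, and no 2 libraries of a group were alike within counting error. Mouse 1 of FeSO4/PBS stood apart from its group over all genes. The chi-square per gene between its counts and those of mice 2 and 3 was 89.47 and 71.41. It was 23.98 between mice 2 and 3, and 18.27 to 37 within FeSO4/DEX. The liver label was borne out by hepatocyte markers such as albumin, 3 of 6 of which rose after FeSO4, and whose sum in normalized counts lay between 1.774e+06 and 2.144e+06 in NaCl/PBS and between 2.255e+06 and 2.578e+06 in FeSO4/PBS mice. Neutrophil markers rose, 5 of 6 tested (sums of 116 to 299.2 and of 776.7 to 936.4), and Kupffer cell and macrophage markers fell, 6 of 7 (sums of 6563 to 7615 and of 3497 to 4175). Of the endothelial markers 2 of 6 rose and 2 fell, of the stellate cell markers 2 of 6 rose and 1 fell, and of the lymphocyte markers 1 of 5 tested fell. Among all tested genes 27.2% rose and 27.3% fell in FeSO4/PBS against NaCl/PBS. The marker calls and sums are given with TMM scaling only. None of these markers was at 0 in every library, and their part in the results below was not tested. In bulk liver, fewer cells of a type and less RNA per cell cannot be told apart.

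Per base of transcript, the highest levels in the NaCl/PBS livers were those of cytosolic genes and the lowest those of mitochondrial ones. The asparagine enzyme gene Nars1 had the highest level of the 37, with a mean of 36.3 FPKM (reads scaled by the length of the canonical transcript and by the TMM-scaled library size). Tars1 for threonine followed at 25.7, Aars1 for alanine at 25.6, Kars1 for lysine at 21.5 and Eprs1, a fused enzyme for glutamate and proline, at 20.9 FPKM. The highest mitochondrial genes were Lars2 for leucine at 15.9, seventh in the order, and Iars2 for isoleucine at 11.8 FPKM. At the low end stood the mitochondrial genes Cars2 (1.52), Pars2 (1.34), Wars2 (1.24) and Mars2 (0.372 FPKM). Their order depends on the transcript length used. Mars2, with a transcript of 11294 bases, had a mean of 83.3 normalized counts in NaCl/PBS, and Pars2, with 2213 bases, had 58.6. Of the 36 neighbours in this order, 27 overlapped in the range of their 3 mice, so that only coarse differences in level can be read from it.

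After FeSO4, in mice given PBS, most genes of cytosolic enzymes rose, while most genes of mitochondrial enzymes were not called and more of them fell than rose. Of the 19 cytosolic genes, 13 rose, 0 fell and 6 were not called, while of the 16 mitochondrial genes 1 rose, 5 fell and 10 were not called. Of the 2 scaffold genes, Aimp1 rose and Aimp2 was not called. Among all tested genes 27.2% rose and 27.3% fell by this rule, so the share of mitochondrial genes that fell was near that background and the share of cytosolic genes that rose was above it, a comparison that was not tested. With a change of more than 1 in LFC required as well, which 12.5% of all genes passed upwards and 14.7% downwards, none of the 37 was called in either direction. The median LFC was 0.43 over the cytosolic genes and -0.10 over the mitochondrial genes, beside -0.015 over all tested genes. The 2 groups did not overlap, with iron higher, in 12 of the 19 cytosolic and 2 of the 16 mitochondrial genes, and with iron lower in 0 and 7 of them, where 29% of all tested genes lay apart upwards and 31% downwards. Scaled by library size alone, 4 cytosolic genes rose and 3 (Cars1, Nars1 and Wars1) fell, and 0 mitochondrial genes rose and 9 fell, with medians of 0.10 and -0.42, but the distance between the 2 medians was 0.53 with TMM and 0.52 with library size. Without mouse 1 of the FeSO4/PBS group the cytosolic median was 0.25 and 9 cytosolic genes rose.

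**Figure D1:**
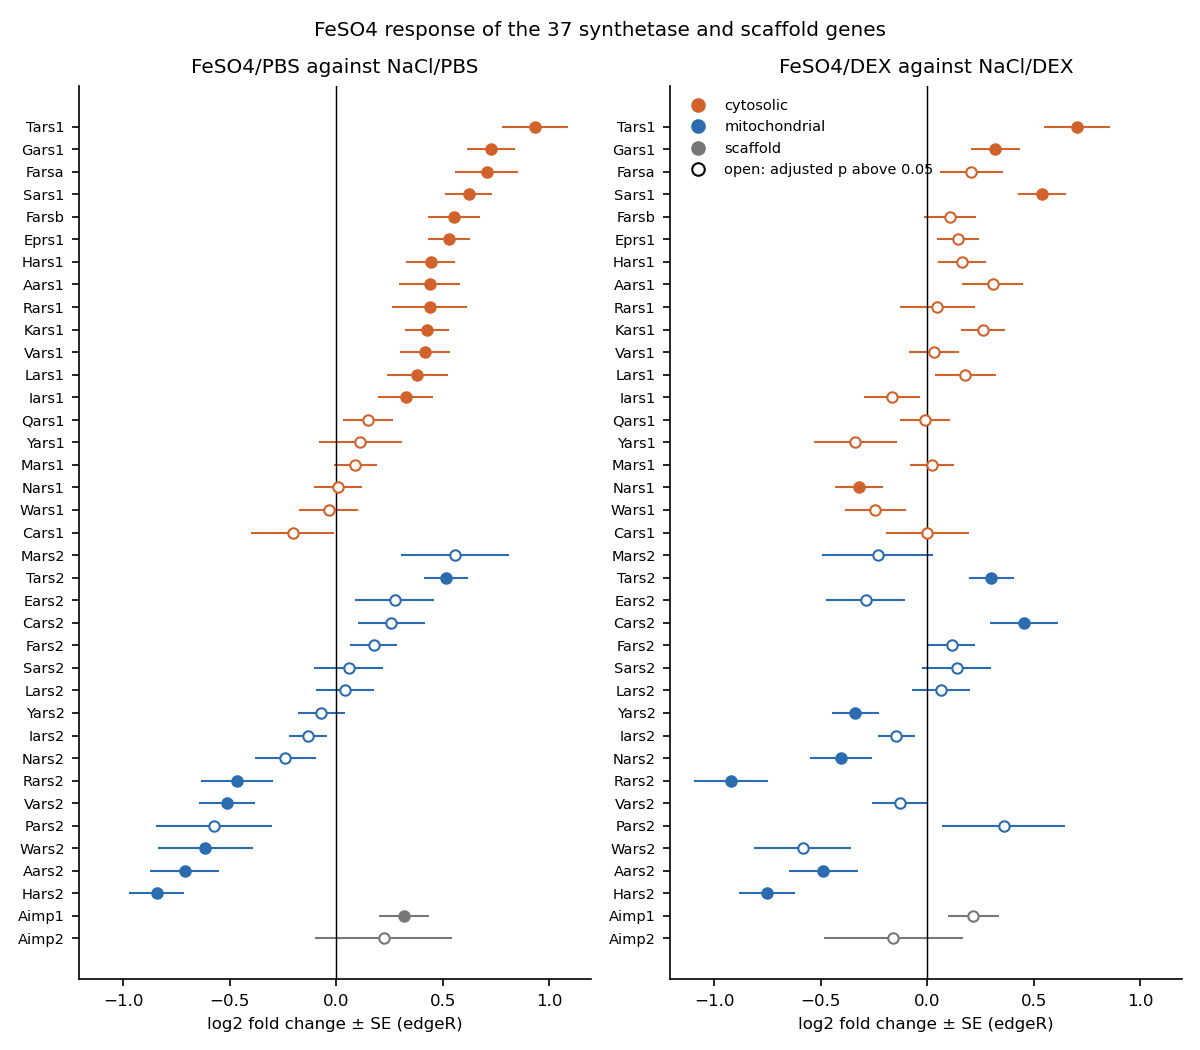
LFC ± SE (edgeR) of the 37 genes on the horizontal axis, after FeSO4 in mice given PBS (left) and in mice given DEX (right), with cytosolic genes in orange, mitochondrial in blue and scaffold genes in grey. Filled points mark called genes, 13 cytosolic genes to the right of 0 and 5 mitochondrial genes to the left in PBS mice, and 3 and 5 in DEX mice.

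The largest rise was that of Tars1, the cytosolic threonyl-tRNA synthetase gene (chr15:11382387-11399775, minus strand, GRCm39). Its normalized counts were 2132, 2057 and 1926 without iron (NaCl/PBS) and 4785, 3188 and 3699.7 with it (FeSO4/PBS), a 1.91-fold change (LFC 0.93 ± 0.15, edgeR FDR 0.000178). The groups did not overlap, and mouse 1 of the FeSO4/PBS group was the highest. Gars1, for glycine in both compartments (chr6:55014927-55061231, plus strand), had 661, 703 and 681 normalized counts without iron and 1287, 1004 and 1090.4 with it (LFC 0.73 ± 0.11, edgeR FDR 0.000116). The NaCl/PBS mice lay close together here, and the lowest FeSO4/PBS mouse was well above them. Both genes of the phenylalanine enzyme, which is built from an alpha and a beta subunit, rose together. Farsa, the alpha subunit, went from 277, 256 and 223 to 505, 349.9 and 379 normalized counts (LFC 0.71 ± 0.15, edgeR FDR 0.00114), and Farsb, the beta subunit, from 555, 605 and 496 to 957, 751 and 722 (LFC 0.55 ± 0.12, edgeR FDR 0.00163). In both genes the groups stayed apart and mouse 1 of the FeSO4/PBS group was again the highest.

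Sars1, for serine, had 807, 644 and 716 normalized counts in NaCl/PBS and 1193, 1038 and 1104 in FeSO4/PBS mice (LFC 0.62 ± 0.11, edgeR FDR 0.000353). Eprs1, for glutamate and proline, had 2756, 2572 and 2533 and then 3918, 3622 and 3817 (LFC 0.53 ± 0.099, edgeR FDR 0.000491). Hars1, for histidine, had 604, 636 and 565 and then 920.3, 777 and 755 (LFC 0.44 ± 0.11, edgeR FDR 0.00462). The groups of these 3 genes did not overlap, and Eprs1 had the smallest SE of the genes that rose. The other 6 cytosolic genes that rose were Aars1 (alanine), Rars1 (arginine), Kars1 (lysine), Vars1 (valine), Lars1 (leucine) and Iars1 (isoleucine), with LFCs between 0.33 and 0.44. Aars1, Rars1, Lars1 and Iars1 were the 4 whose call was lost in 3 or 4 of the 6 fits that left out a mouse, and the other 9 were called in each. In Rars1 mouse 1 of the FeSO4/PBS group stood at 1115 normalized counts, beside 647 and 728 in its group and 581 to 642 in NaCl/PBS. The cytosolic genes that were not called were Cars1 (cysteine), Mars1 (methionine), Nars1 (asparagine), Qars1 (glutamine), Wars1 (tryptophan) and Yars1 (tyrosine), with LFCs from -0.20 to 0.15 and SEs from 0.10 to 0.20.

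The mitochondrial gene with the largest fall was Hars2, for histidine. It had 487, 446 and 455 normalized counts in NaCl/PBS and 286, 207 and 282 in FeSO4/PBS mice, a 0.558-fold level (LFC -0.84 ± 0.13, edgeR FDR 9.7e-05). No FeSO4/PBS mouse came near the NaCl/PBS range. Aars2, for alanine, had 332, 381 and 345 and then 243, 181 and 222 (LFC -0.71 ± 0.16, edgeR FDR 0.00202). Vars2, for valine, had 310.0, 371 and 427 and then 249.97, 266 and 260.2 (LFC -0.51 ± 0.13, edgeR FDR 0.0048). The groups of both genes stayed apart, though the Vars2 values of the NaCl/PBS mice were widely spread. Wars2, for tryptophan, one of the lowest of the 37 genes, had 127, 109 and 120.2 and then 76.6, 71.2 and 85.4 (LFC -0.61 ± 0.22, edgeR FDR 0.0307). Rars2, for arginine, had 222, 227 and 198 and then 180.4, 123 and 166 (LFC -0.47 ± 0.17, edgeR FDR 0.0314). In Wars2 and Rars2, too, all FeSO4/PBS mice lay below, but the call was lost in 4 of the 6 fits without a mouse for Wars2 and in 3 of 6 for Rars2. The number of mitochondrial genes that fell was 3 without mouse 1 of NaCl/PBS or mouse 2 of FeSO4/PBS.

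Tars2, for threonine, was the mitochondrial gene that rose, as its cytosolic counterpart Tars1 did. It had 340.2, 391 and 381 normalized counts in NaCl/PBS and 533, 504 and 551 in FeSO4/PBS mice (LFC 0.51 ± 0.10, edgeR FDR 0.000886), with no overlap. With library size alone its LFC was 0.20 and not called. The 10 mitochondrial genes that were not called spread from Pars2 for proline (LFC -0.57, edgeR FDR 0.0886) to Mars2 for methionine (LFC 0.56, edgeR FDR 0.0774). Between them lay Nars2, Iars2, Yars2, Lars2, Sars2, Fars2, Cars2 and Ears2, with LFCs from -0.24 to 0.27. The SEs of Pars2 and Mars2, 0.27 and 0.25, were the largest of the 35 synthetase genes in this comparison. Without mouse 2 of NaCl/PBS or mouse 1 of FeSO4/PBS, 2 mitochondrial genes rose, with Mars2 added in the first case and Cars2 in the second. Of the scaffold genes, Aimp1 had 402, 409.6 and 373 and then 545, 486 and 445 normalized counts (LFC 0.32 ± 0.12, edgeR FDR 0.0353), but its LFC was -0.0032 with library size alone and its call was lost in 5 of 6 fits without a mouse. Aimp2 had 121, 155 and 118 and then 269, 99.7 and 86.7 (LFC 0.22, edgeR FDR 0.581), with mouse 1 of the FeSO4/PBS group above and the other 2 below all NaCl/PBS mice. In the fit without that mouse 1, Aimp2 was called lower.

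**Figure D2:**
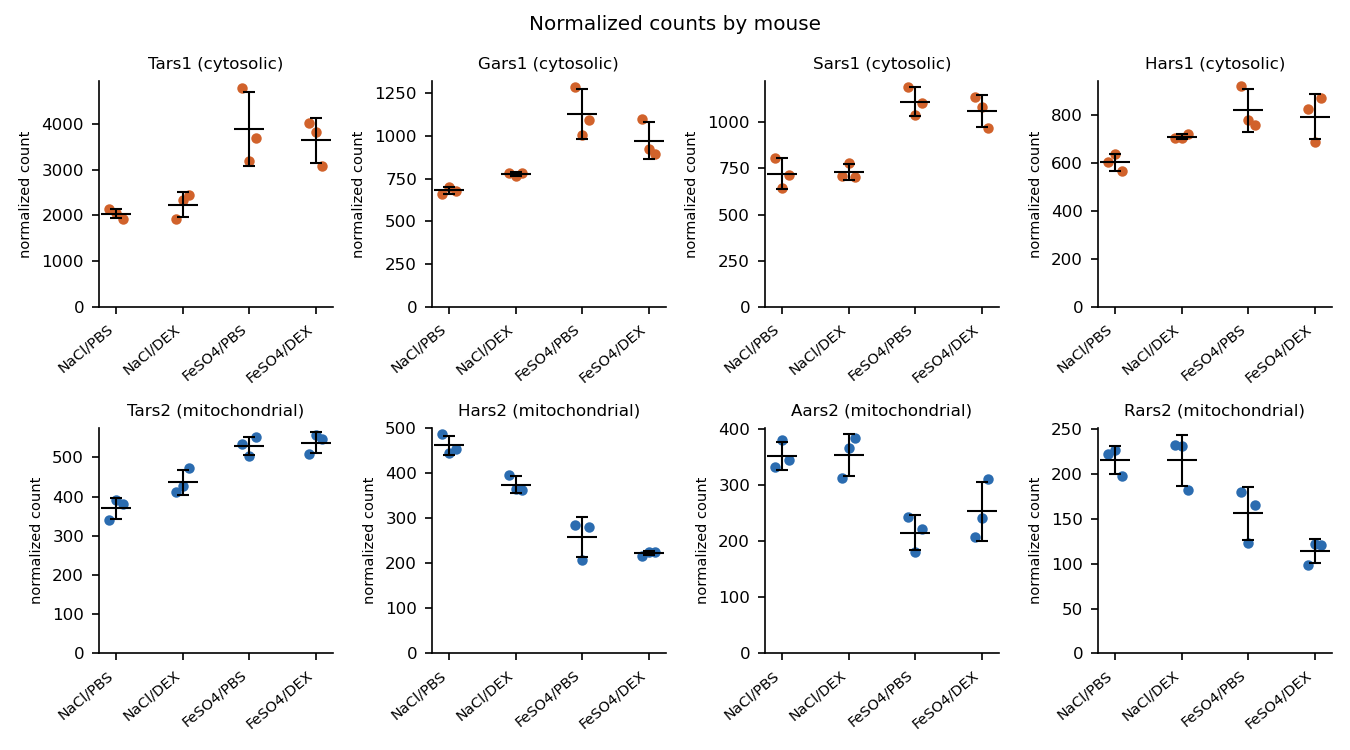
Normalized counts (vertical axes from 0) of 4 cytosolic genes (orange) and 4 mitochondrial genes (blue) in each of the 12 mice by group, with the mean and SD of 3 mice as black bars. Tars1, Gars1, Sars1, Hars1 and Tars2 lay higher and Hars2, Aars2 and Rars2 lower in every FeSO4/PBS mouse than in any NaCl/PBS mouse.

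A measure that needs no scaling between libraries is the share of mitochondrial genes among all reads on the 35 synthetase genes of a mouse. In mice given PBS this share was 24.7, 24 and 25.7% with NaCl and 16.2, 19.9 and 20.1% with FeSO4, or 24.8% ± 0.829 and 18.7% ± 2.16 (SD, n = 3 each). In the DEX mice it was 23.3, 22.2 and 22.9% with NaCl and 17.3, 20.6 and 20.5% with FeSO4. Every FeSO4 mouse thus lay below every NaCl mouse, with mouse 1 of each FeSO4 group the lowest. The same order was seen in the median log2 level of the cytosolic genes minus that of the mitochondrial genes, each gene set against its NaCl/PBS mean. This distance was 0.04, 0.03 and -0.096 in NaCl/PBS, 0.18, 0.20 and 0.14 in NaCl/DEX, 0.80, 0.36 and 0.33 in FeSO4/PBS and 0.53, 0.34 and 0.51 in FeSO4/DEX mice. The NaCl/DEX mice lay between the NaCl/PBS mice and both FeSO4 groups.

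**Figure D3:**
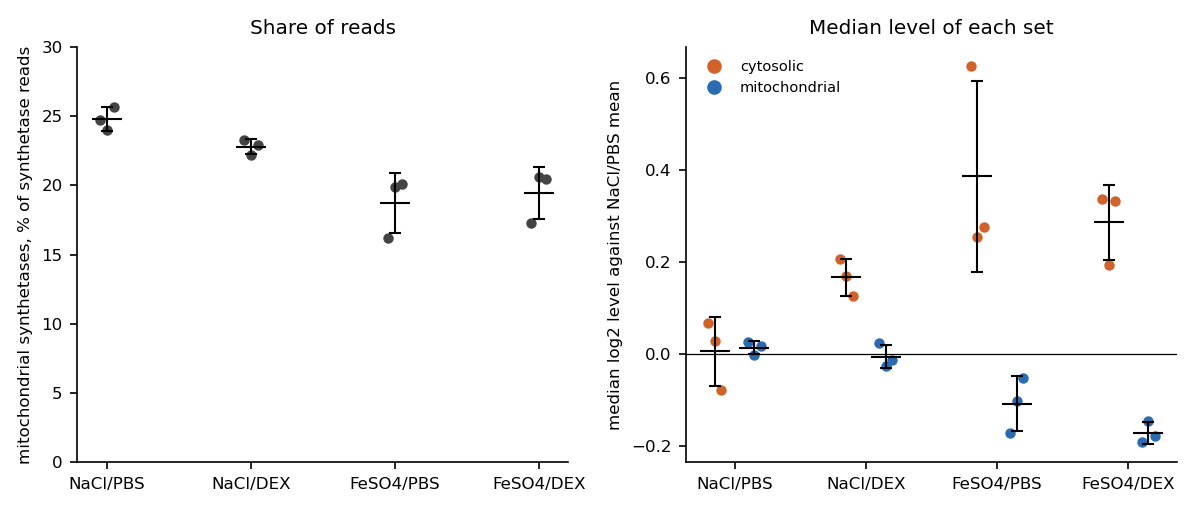
Left, reads on mitochondrial synthetase genes as a percentage of reads on the 35 synthetase genes (axis from 0), and right, the median log2 level of the cytosolic (orange) and mitochondrial (blue) genes against the NaCl/PBS mean, with 1 point per mouse and bars for the mean and SD of 3. The share lay between 22.2% and 25.7% in NaCl mice and between 16.2% and 20.6% in FeSO4 mice, and mouse 1 of FeSO4/PBS had the highest cytosolic median.

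For 13 amino acids both a cytosolic and a mitochondrial gene are among the 37. After FeSO4 in PBS mice the cytosolic gene had the higher LFC in 11 of these 13 pairs, and the median difference in LFC was 0.46. The log2 ratio of cytosolic to mitochondrial reads was above all NaCl/PBS mice in all FeSO4/PBS mice for 8 pairs, and below for 0, while 3 mice against 3 cannot give an exact two-sided permutation p under 0.10. The histidine pair differed most, with a log2 read ratio of 0.31, 0.51 and 0.31 in NaCl/PBS and 1.68, 1.91 and 1.42 in FeSO4/PBS mice. Hars1 and Hars2 stand head to head on chromosome 18, and in vM39 they overlap by 198 bases on opposite strands, while their LFCs were 0.44 and -0.84. The alanine pair followed, with ratios of 3.06, 3.10 and 2.99 and then 4.37, 4.30 and 3.90. For the valine pair they were 0.73, 0.36 and 0.028 and then 1.57, 1.09 and 1.19. In these 3 pairs, and in that of arginine, the cytosolic gene rose and the mitochondrial gene fell. The pairs closest in LFC were those of tyrosine (0.11 for Yars1 and -0.07 for Yars2), asparagine (0.0063 and -0.24) and leucine (0.38 and 0.04), and their read ratios overlapped between the groups. In the pairs of cysteine and methionine the mitochondrial gene had the higher LFC, by 0.46 and 0.47, with overlapping read ratios.

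**Figure D4:**
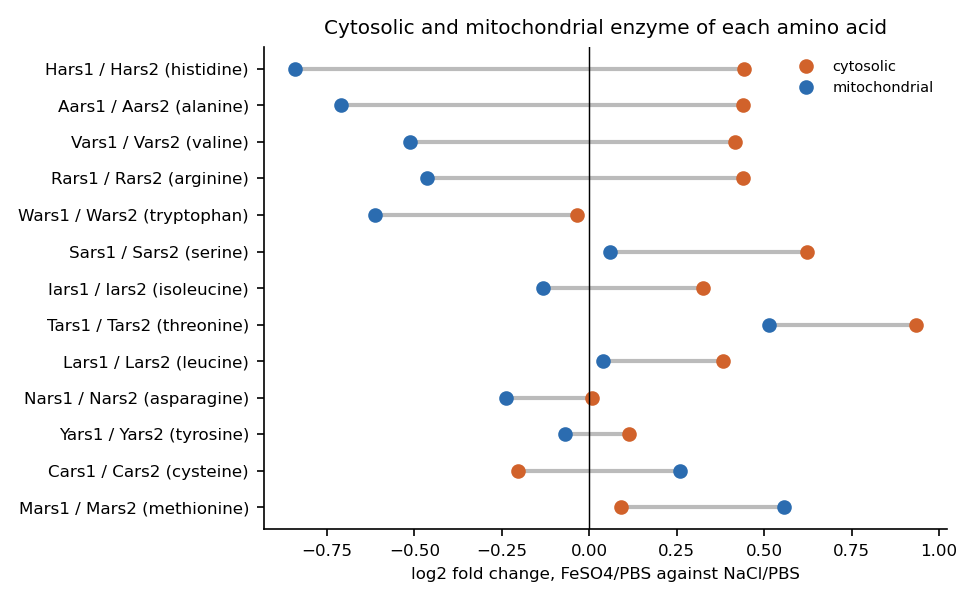
LFC after FeSO4 in PBS mice (horizontal axis) of the cytosolic (orange) and mitochondrial (blue) gene of 13 amino acids, ordered by their difference. The cytosolic gene lies to the right in 11 pairs, the furthest for histidine at 0.44 against -0.84, and to the left for cysteine and methionine.

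Synthetases fall into classes I and II by the fold of their catalytic domain. Of the 9 cytosolic class II genes, 8 rose (all but Nars1), with a median LFC of 0.55, and of the 9 cytosolic class I genes 4 rose, with a median of 0.15, while Eprs1 carries a domain of each class. In the mitochondrial set, 3 of 9 class I genes fell and none rose, and of the 7 class II genes 2 fell and 1 rose. Of all tested genes 27.2% rose and 27.3% fell, so the shares of mitochondrial genes that fell in both classes were near that background. The 9 members of the multisynthetase complex among the 37 genes (Eprs1, Iars1, Kars1, Lars1, Mars1, Qars1, Rars1, Aimp1 and Aimp2) had LFCs of 0.089 to 0.53 and a median of 0.33, and 6 of them rose. The 12 cytosolic genes outside the complex had a median of 0.44, and 8 rose. The difference between these groups was not tested.

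Because ATF4 is known to act on synthetase genes, promoters were searched for TGATGNAA, the letters of the composite element that ATF4 binds with C/EBP proteins, on both strands, from 250 bases before to 50 after the start of each gene's canonical vM39 transcript. A match was found in 836 of 21757 protein-coding genes (3.84%), in 5 of the 19 cytosolic genes (26.3%), in 0 of the 16 mitochondrial genes and in 0 of the 2 scaffold genes. Among the 12 genes of the ATF4 axis listed below, 2 had a match (16.7%), Chac1 and Ddit3, and the others, Asns and Trib3 among them, had none. The 5 cytosolic genes were Aars1, Cars1, Gars1, Iars1 and Tars1, of which all but Cars1 rose after FeSO4. Median GC content was 56.3% in the cytosolic and 56% in the mitochondrial windows, beside 54.3% over all genes. Matches of the 4 genes other than Tars1 are given in windows of 30 bases of GRCm39, read in the direction of the gene, with the match in capitals, which here reads as the reverse complement of the letters searched. The match of Aars1 shown begins at position -25 from the start, within an exon of other Aars1 transcripts, and those of Gars1, Cars1 and Iars1 begin at 12, 27 and 37, in the first exon.
Aars1 (chr8:111760472-111760501, plus strand): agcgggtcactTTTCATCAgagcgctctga
Gars1 (chr6:55014945-55014974, plus strand): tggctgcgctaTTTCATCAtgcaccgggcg
Cars1 (chr7:143153782-143153811, minus strand): cggcgccgcggTTGCATCAgattctggaag
Iars1 (chr13:49835596-49835625, plus strand): gcctggcactgtcagtaTTGCATCAcctcc

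For Tars1, the gene with the largest rise, the 250 bases before the canonical start are shown, with the match in capitals at their end, where other Tars1 transcripts already begin. The same stretch of Aars2, whose LFC was -0.71 where that of its partner Aars1 was 0.44, is given beside it as an example of a mitochondrial gene without a match. Of the 13 cytosolic genes that rose, 4 had a match, and Sars1, Farsa, Eprs1 and 6 others had none. A match is a string of letters, and binding was not measured.
Tars1 (chr15:11399752-11400001, minus strand): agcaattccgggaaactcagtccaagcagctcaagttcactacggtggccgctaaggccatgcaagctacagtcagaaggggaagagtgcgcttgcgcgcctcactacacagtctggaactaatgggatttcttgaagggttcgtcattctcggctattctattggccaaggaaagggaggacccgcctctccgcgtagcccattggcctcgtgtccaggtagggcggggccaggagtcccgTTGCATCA
Aars2 (chr17:45817503-45817752, plus strand): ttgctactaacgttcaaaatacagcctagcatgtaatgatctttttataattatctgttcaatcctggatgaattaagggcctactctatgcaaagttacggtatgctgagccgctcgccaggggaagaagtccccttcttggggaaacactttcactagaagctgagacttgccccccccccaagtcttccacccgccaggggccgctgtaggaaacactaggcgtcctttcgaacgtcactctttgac

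Other genes of the pathway were taken as lists, beside the 27.2% of all tested genes that rose and 27.3% that fell after FeSO4 in PBS mice. Among 12 cytosolic translation factors 10 rose and 0 fell after FeSO4 in PBS mice, with a median LFC of 0.56. The largest were Etf1, the release factor that reads stop codons (LFC 1.08, edgeR FDR 1.85e-06), the cap-binding Eif4e (LFC 0.96, edgeR FDR 2.32e-06), Eif2s1, the alpha subunit of eIF2 (LFC 0.75, edgeR FDR 4.36e-05), Eif5a (LFC 0.73, edgeR FDR 0.000479) and Abce1, which recycles ribosomes (LFC 0.66, edgeR FDR 0.000248). Among 10 mitochondrial translation factors 0 rose and 4 fell, with a median LFC of -0.26. Those that fell were the initiation factors Mtif2 (LFC -1.16, edgeR FDR 2.13e-06) and Mtif3 (LFC -0.79, edgeR FDR 0.00224), the release factor Mtrf1l (LFC -0.66, edgeR FDR 0.0107) and Gfm2 (LFC -0.61, edgeR FDR 8.24e-05). With library size alone, 5 cytosolic factors rose and 1 fell (median 0.24), and 0 mitochondrial factors rose and 7 fell (median -0.59).

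Of 15 genes that charge, proofread or finish tRNAs, 14 were tested, 2 rose and 9 fell, with a median LFC of -0.43. Eef1e1, a further component of the multisynthetase complex, rose (LFC 1.15, edgeR FDR 0.000267), as did Trnt1, which adds the CCA end of tRNAs (LFC 0.94, edgeR FDR 0.000335). Pstk, a kinase of the selenocysteine tRNA (LFC -1.05, edgeR FDR 0.000117), and Tars3, a further threonine synthetase gene (LFC -0.97, edgeR FDR 0.00055), fell. With library size alone 2 rose and 10 fell.

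The ATF4 axis was measured through 12 genes, of which 11 were tested, 4 rose and 0 fell, where 27.2% of all tested genes rose and 27.3% fell. With library size alone 4 rose and 4 fell. The 4 that rose with TMM scaling were Chac1 (LFC 3.58, edgeR FDR 1.5e-07), Eif2ak4, the kinase that senses uncharged tRNA (LFC 1.19, edgeR FDR 0.000105), Eif2ak3 (LFC 0.91, edgeR FDR 0.000966) and Atf4 itself. Atf4 had 1231 ± 39.5 normalized counts in NaCl/PBS and 3846 ± 1470.0 in FeSO4/PBS mice (SD, n = 3 each, LFC 1.64 ± 0.20, edgeR FDR 1.53e-05). The asparagine synthetase gene Asns (LFC 1.00, edgeR FDR 0.0683) and Ddit3 (LFC -0.46, edgeR FDR 0.233) were among the 7 tested genes that were not called. Ddit3 overlaps exons of Mars1 on the opposite strand, and whether the authors counted by strand was not stated, so reads of these genes may be shared. The same holds for Aimp2, Cars2, Iars2, Mars2 and Yars2, which overlap genes on the opposite strand by 2832 to 4080 exonic bases. Smaller such overlaps were found in other members, among them Fars2 (2071), Yars1 (1892), Farsb (1348), Ears2 (1263) and Aars2 (785 bases). Aars1 overlaps Exosc6 on its own strand by 1326.

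In mice given DEX, fewer cytosolic genes passed the test after FeSO4, and the mitochondrial genes that fell were as many as in PBS mice. Of the 19 cytosolic genes, 3 rose and 1 fell, and of the 16 mitochondrial genes 2 rose and 5 fell, where 22.4% of all tested genes rose and 20.9% fell. Tars1 (LFC 0.70, edgeR FDR 0.00208) and Sars1 (LFC 0.54, edgeR FDR 0.00148) rose and were called without any 1 mouse, while Gars1 (LFC 0.32, edgeR FDR 0.0346) rose and Nars1 (LFC -0.32, edgeR FDR 0.0341) fell in calls that were each lost in 5 of 6 fits without a mouse. Tars1 had 1925, 2338 and 2444 normalized counts in NaCl/DEX and 4026, 3817 and 3075 in FeSO4/DEX mice, again without overlap. Among the mitochondrial genes Rars2 fell from 233, 231 and 182 to 98.6, 122 and 121 (LFC -0.92 ± 0.17, edgeR FDR 0.000754), and Hars2 from 397, 366 and 362 to 217, 226 and 225 (LFC -0.75 ± 0.13, edgeR FDR 0.000403). These 2 were called without any 1 mouse, and their groups did not overlap. Aars2 (LFC -0.49, edgeR FDR 0.0249), Nars2 (LFC -0.41, edgeR FDR 0.0359) and Yars2 (LFC -0.34, edgeR FDR 0.0254) also fell, and Cars2 (LFC 0.45, edgeR FDR 0.0313) and Tars2 (LFC 0.30, edgeR FDR 0.0311) rose, in calls that were lost in 3 to 6 of the 6 fits without a mouse. With library size alone, 2 cytosolic genes rose and 4 fell, and 0 mitochondrial genes rose and 8 fell. The median LFC was 0.11 over the cytosolic and -0.19 over the mitochondrial genes, beside 0.014 over all tested genes. The cytosolic median turned to -0.090 with library size alone, while the distance between the medians was 0.29 with either scaling.

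DEX was tested on its own in both iron states. In NaCl mice, where 6.5% of all tested genes rose and 7.15% fell, 0 of the 37 rose and 1 fell. This was Pars2, the mitochondrial proline enzyme, with 56.8, 58.9 and 60.1 normalized counts in NaCl/PBS and 26.8, 29.1 and 36.2 in NaCl/DEX mice (LFC -0.93 ± 0.28, edgeR FDR 0.0382). The groups did not overlap, but the call was lost without any 1 of the 6 mice. At an unadjusted p under 0.05 there were 8 of the 37, beside 3718 (26.8%) of all tested genes, and DESeq2 called Eprs1 higher (LFC 0.26, adjusted p 0.0321), where edgeR gave LFC 0.24, edgeR FDR 0.133. With TMM scaling, all but 1 of the 19 cytosolic LFCs were above 0, with a median of 0.17 and a highest of 0.41 for Yars1, beside 0.0030 over the mitochondrial genes and -0.025 over all tested genes. With library size alone the cytosolic LFCs lay on both sides of 0, from -0.18 for Qars1 to 0.25 for Yars1. In a fit of the 6 mice of this comparison alone, 4 members rose, 3 of them cytosolic (Farsa, Iars1 and Yars1) and 1 mitochondrial (Ears2).

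In FeSO4 mice edgeR called none of the 37 genes for DEX, and none of the 13857 tested genes (0% higher and 0% lower). At an unadjusted p under 0.05 there was 1 of the 37, beside 900 (6.49%) of all tested genes, and DESeq2 called 0 of the 37. That 1 gene was Rars2, with 180.4, 123 and 166 normalized counts in FeSO4/PBS and 98.6, 122 and 121 in FeSO4/DEX mice (LFC -0.46 ± 0.18, edgeR FDR 0.732). LFCs lay between -0.53 for Mars2 and 0.26 for Cars1, with SEs of 0.087 to 0.33, so changes of the size seen after FeSO4 in the smaller movers could have been missed. The 2 DEX comparisons share no mice, but each shares its PBS mice with the FeSO4 comparison in PBS mice.

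The difference between the 2 DEX responses, which equals the difference between the 2 FeSO4 responses, was tested in the same model. Of all tested genes 2.99% were higher and 3.2% lower in this difference, and of the 37 genes 0 were called in either direction. At an unadjusted p under 0.05 there were 9 of the 37, beside 2830 (20.4%) of all tested genes. Of these 9, 6 were cytosolic (Eprs1, Farsa, Farsb, Gars1, Iars1 and Vars1), all with negative values from -0.50 to -0.38. DESeq2 called Eprs1 (-0.42, adjusted p 0.0205), for which edgeR gave LFC -0.38 ± 0.14, edgeR FDR 0.133. In 18 of the 19 cytosolic genes the value was below 0, with a median of -0.28, beside 0.0056 over the mitochondrial and 0.023 over all tested genes. The smaller number of cytosolic genes called after FeSO4 in DEX mice is therefore not shown by edgeR to be a different response of any single gene.

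**Figure D5:**
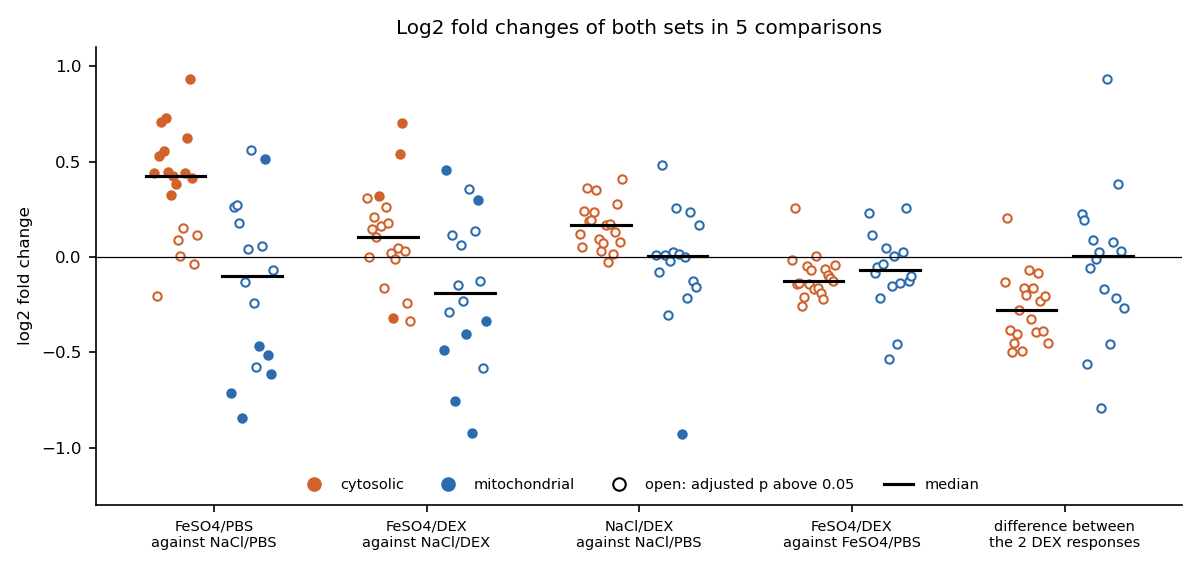
LFCs (vertical axis) of the 19 cytosolic (orange) and 16 mitochondrial (blue) genes in 5 comparisons, with filled points for called genes and bars for the medians. The medians stood furthest apart after FeSO4 in PBS mice, at 0.43 and -0.10, and no point is filled for DEX in FeSO4 mice or for the difference between the DEX responses.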

How the data were processed

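Livers of 12 mice were profiled by mRNA sequencing with a stranded library kit. The deposited table holds raw read counts per Ensembl gene, which the authors made with STAR 2.7.10b on mm39 per the labels (FastQC and DESeq2 are also named there). The strand setting of the counting was not given in the sources used here.

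Groups were taken from the sample labels. Counts were tested with edgeR 4.0.16 in R 4.3.3 (filterByExpr, TMM scaling, quasi-likelihood F test, 1 model of the 4 group means, Benjamini-Hochberg adjustment over the 13857 genes tested). The SE is the size of the LFC divided by the square root of F. FPKM used canonical transcript lengths of GENCODE vM39, which also gave symbols, positions and the promoter windows on GRCm39. The procedure was tested on simulated counts. DESeq2 1.42.0 and its size factors, library size alone, no filter, at least 10 counts in every library, a replicate block, the libraries of 1 comparison alone, an LFC beyond 1 and fits without each mouse were run as alternatives.

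The genes and lists were chosen with earlier results of these data known. Genes given mouse by mouse were up to 8 with the largest called rise and fall after FeSO4 in PBS mice, those called for DEX, and the 3 pairs that differed most and least. For other lists, up to 5 called genes by size of LFC and Atf4 were named. A gene and a sequence that these rules would give are not reported here. Asns, Ddit3, Rars1, Aimp1 and Aimp2 were singled out after their values were seen, as were the genes named for the comparison in DEX mice and for the difference.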

Additional observations from a re-analysis of the deposited data

Results flagged for a closer look

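None of the 37 synthetase and scaffold genes, but 4 genes of the tRNA and translation lists and 2 endothelial markers, differed by edgeR between the DEX response in FeSO4 mice and that in NaCl mice. Of all tested genes 2.99% were higher and 3.2% lower in this difference. The 2 markers were of 6 endothelial ones, and no marker of another cell type was called. The 4 genes were 1 of 14 tested tRNA genes and 3 of 12 cytosolic translation factors, beside 0 of 10 mitochondrial factors and 0 of 11 tested ATF4 axis genes. The differences of the 4 were negative. Trnt1, which adds the CCA end of tRNAs, had the largest of them (-1.10, edgeR FDR 0.013), with mean normalized counts (± SD, n = 3 each) of 269 ± 18.6 and, with DEX, 355 ± 16.8 in the NaCl mice and 515 ± 131 and, with DEX, 317 ± 48.6 in the FeSO4 mice. Eef1d, a subunit of the elongation factor that reloads eEF1A, had a difference of -0.61, edgeR FDR 0.0267, with 1065 ± 65.1 and, with DEX, 1497 ± 78.0 in the NaCl mice and 1402 ± 140.0 and, with DEX, 1293 ± 89.6 in the FeSO4 mice. Etf1, the stop codon release factor, had a difference of -0.54, edgeR FDR 0.0437, with 1815 ± 163 and, with DEX, 2269 ± 40.1 in the NaCl mice and 3839 ± 302 and, with DEX, 3293 ± 208 in the FeSO4 mice. Eif4e, the cap-binding factor, had a difference of -0.51, edgeR FDR 0.0395, with 577 ± 40 and, with DEX, 736 ± 35.4 in the NaCl mice and 1127 ± 41.5 and, with DEX, 1005 ± 54.8 in the FeSO4 mice. Of the endothelial markers, Lyve1, a hyaluronan receptor, had a difference of -2.13, edgeR FDR 0.00139, and Kdr, a VEGF receptor, one of 1.78, edgeR FDR 0.0249.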

How the results depend on the processing

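With library size alone, after FeSO4 4 cytosolic genes rose and 3 fell and 0 mitochondrial genes rose and 9 fell in PBS mice (medians 0.10 and -0.42), 4 cytosolic genes fell and 0 mitochondrial genes rose and 8 fell in DEX mice, and DEX lowered 2 of the 37 in NaCl mice. With TMM scaling and an LFC beyond 1 required, the counts of members called in these comparisons were all 0. With no filter on low counts, 0 cytosolic genes fell and 0 mitochondrial genes rose and 3 fell in the DEX mice, and DEX lowered 0 in NaCl mice. With the libraries of 1 comparison alone, 5 cytosolic genes rose and 2 fell in DEX mice, and DEX raised 4 of the 37 in NaCl mice. DESeq2 called 1 of the 37 (Eprs1) higher with DEX in NaCl mice and 1 (Eprs1) lower in the difference between the DEX responses, and in DEX mice after FeSO4 it called Kars1 higher (adjusted p 0.0495) and Wars2 lower (0.0293) besides, so that 4 cytosolic genes rose and 6 mitochondrial genes fell. With edgeR and DESeq2's size factors 6 mitochondrial genes fell there. The cause of these shifts was not tested.

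Without 1 mouse, the cytosolic genes that rose in PBS mice numbered 9 to 13 (0 to 0 fell) and the mitochondrial genes that fell 3 to 6 (1 to 2 rose), with medians of 0.25 to 0.50 and -0.13 to -0.091. In DEX mice they were 2 to 3 and 2 to 4, with 0 to 1 cytosolic genes lower and 0 to 1 mitochondrial genes higher, and DEX in NaCl mice lowered 0 to 0. Of the 16 called genes given mouse by mouse, DESeq2 and its size factors ended no call and the filter at 10 counts ended that of Rars1. Library size alone ended those of Eprs1, Farsb, Hars1, Rars1, Tars2 and Aimp1, and turned Aimp1 to an LFC of -0.0032. No filter ended those of Rars2, Pars2 and Aimp1, and the libraries of the comparison alone those of Rars1, Rars2 and Aimp1.

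Whether equal replicate numbers mark paired mice was not settled. The deviations of 18 pairs of libraries with the same number correlated at -0.092 to 0.13, with 2 pairs over 0.1. Both of these were between NaCl/PBS and NaCl/DEX, where equal numbers gave 0.129, 0.109 and 0.052. Unequal numbers gave -0.151 to 0.0302 between those groups. With the replicate number as a block, 13 cytosolic genes rose and 5 mitochondrial genes fell in PBS mice, and of the 16 calls only that of Aimp1 was lost (LFC 0.32, edgeR FDR 0.0534). With 3 mice a group, LFCs of these genes had SEs of 0.087 to 0.32 in the comparison in PBS mice, so smaller changes could not be told from 0.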

Other observations

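The lists beside the synthetases were also measured in the DEX mice, where 22.4% of all tested genes rose and 20.9% fell after FeSO4. After FeSO4, 5 of the 12 cytosolic translation factors rose there and 0 fell, led by Etf1 (LFC 0.54), and 0 of the 10 mitochondrial factors rose and 4 fell, among them Mtif2 (LFC -0.77) and Gfm2 (LFC -0.66). Of the ATF4 axis 4 genes rose and 1 fell. Chac1, an enzyme that degrades glutathione, rose most (LFC 4.23 ± 0.28, edgeR FDR 1.05e-07), and Trib3, an inhibitor of ATF4 action, fell (LFC -0.996 ± 0.25, edgeR FDR 0.0053). Of the 14 tested genes that charge, proofread or finish tRNAs, 1 rose and 8 fell, with Tars3 (LFC -0.80) and Pstk (LFC -0.76) the furthest down.

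DEX in NaCl mice, where 3 of the 12 cytosolic translation factors rose (Eef1d, Abce1 and Eif4e, LFCs 0.49, 0.36 and 0.35), also raised Eif2ak4 (LFC 0.66 ± 0.18, edgeR FDR 0.027). No gene of the 10 mitochondrial factors or of the 14 tested tRNA genes beside the synthetases was called there by edgeR. An unadjusted edgeR p under 0.05 was found in 3 and 5 of them, beside 26.8% of all tested genes. Of all tested genes 6.5% rose and 7.15% fell with DEX in NaCl mice. These counts were made with TMM scaling only.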
